A study of Mus musculus with 6 samples.

Results

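The Hox genes of MHCIIhi cells from the muscularis externa (ME) of the small bowel were examined in 6 bulk RNA-seq libraries, 3 of CX3CR1- and 3 of CX3CR1+ cells. Members were chosen by symbol alone, Hox followed by a cluster letter (a to d) and a paralog number, which left out antisense transcripts. This gave 27 of the 26110 genes with a row in the deposited table. The mouse annotation used here (GENCODE M21, GRCm38) holds 39 Hox genes, and the other 12 (Hoxa10, Hoxa13, Hoxb9, Hoxb13, Hoxc10, Hoxc11, Hoxc13, Hoxd1, Hoxd4, Hoxd10, Hoxd12 and Hoxd13) had no row and were not analysed here.

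Hox genes encode homeodomain transcription factors that give cells their position along the body axis. They lie in clusters in which the order of the genes on the chromosome follows the order of their expression domains from head to tail, and genes of different clusters with the same number are paralogs. In the gut, mesenchymal and muscle layers carry region-specific Hox patterns, and in blood formation several Hox genes are active in progenitors and decline as myeloid cells mature.

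All mice carried the genotype CX3CR1+/GFP, in which GFP replaces one Cx3cr1 allele and marks cells with an active locus, were on the C57BL/6 background and had received no treatment. The study's methods name female mice and a sort of ME suspensions pooled from several animals, and whether each library had a pool of its own is not stated, so that p-values measure the spread between libraries, which may be technical. The age of the mice is not given in the sources used here. The sample labels call both populations dendritic cells, whereas the study treats them as macrophages. Cx3cr1 itself was at 23.2, 18.9 and 28.5 in CX3CR1- and at 371, 380 and 347 in CX3CR1+ replicates 1, 2 and 3, which separates the populations as labelled. The values are the authors' normalized gene signals, and from their smallest step the libraries held about 5346379 to 17616748 reads.

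The sorted populations differed in far more than CX3CR1. Of 10 macrophage markers, 10 were lower in CX3CR1- cells, and of 8 dendritic cell markers, 8 were higher. Of 5 tested monocyte markers 4 were higher, and of 2 tested eosinophil and neutrophil markers 1 was higher and 1 lower. Markers of some cells outside the myeloid lineage were higher too, namely 9 of 10 tested fibroblast, 11 of 11 enterocyte, 6 of 8 B and plasma cell and 3 of 4 enteric glia markers. Over all tested genes, 12.2% were called higher and 8.15% lower. Of enteric neuron markers 0 of 7 were higher, of interstitial cells of Cajal 1 of 3 and of mesothelium 1 of 4. Among 7 endothelial markers 5 were higher and 1 lower, and among 3 T and NK cell markers 1 was higher and 1 lower. Smooth muscle markers were present in both populations, with 1 of 8 called higher in CX3CR1- cells (Smtn, named after its value was seen). Mitochondrial genes took 47.5 to 54.9% of the CX3CR1- and 18.1 to 21.2% of the CX3CR1+ totals. In bulk libraries, fewer cells of a type and less RNA per cell cannot be told apart.

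Promoters of 4 Hox genes are shown because these genes span what the values below cover. Hoxa3 and Hoxa5 are genes of the A cluster, of which Hoxa3 was called higher in CX3CR1- cells and Hoxa5 was not called. Hoxb4 and Hoxc4 are paralogs for which no difference was called either. For Hoxa5, Hoxb4 and Hoxc4 alike, CX3CR1- replicates 1 and 3 lay above every CX3CR1+ library and replicate 2 did not. The 4 genes were chosen with these values known. The sequences are from RefSeq (GRCm38.p6), run 5′ to 3′ on the strand of the gene, and hold 250 bases before and 50 after the annotated start. Capitals mark a CCAAT box on either strand and a run shared by the Hoxa5 and Hoxc4 promoters.
Hoxa3: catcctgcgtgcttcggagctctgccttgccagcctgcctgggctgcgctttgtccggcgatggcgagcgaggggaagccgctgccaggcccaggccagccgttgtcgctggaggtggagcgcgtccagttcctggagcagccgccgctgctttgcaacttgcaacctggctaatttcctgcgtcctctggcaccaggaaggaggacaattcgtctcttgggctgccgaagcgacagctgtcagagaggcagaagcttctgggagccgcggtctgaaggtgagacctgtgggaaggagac
Hoxa5: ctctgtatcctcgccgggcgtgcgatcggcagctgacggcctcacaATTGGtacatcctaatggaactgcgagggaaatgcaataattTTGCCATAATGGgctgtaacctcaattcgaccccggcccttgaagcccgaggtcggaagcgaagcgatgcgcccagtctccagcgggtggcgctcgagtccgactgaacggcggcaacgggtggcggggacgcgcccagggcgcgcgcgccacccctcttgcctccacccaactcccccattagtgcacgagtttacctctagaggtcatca
Hoxb4: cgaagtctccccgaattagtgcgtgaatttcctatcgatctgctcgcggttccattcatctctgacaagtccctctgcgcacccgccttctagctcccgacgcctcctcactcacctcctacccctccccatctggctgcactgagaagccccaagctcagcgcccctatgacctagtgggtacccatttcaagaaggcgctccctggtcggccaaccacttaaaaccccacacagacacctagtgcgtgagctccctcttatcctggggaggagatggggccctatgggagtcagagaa
Hoxc4: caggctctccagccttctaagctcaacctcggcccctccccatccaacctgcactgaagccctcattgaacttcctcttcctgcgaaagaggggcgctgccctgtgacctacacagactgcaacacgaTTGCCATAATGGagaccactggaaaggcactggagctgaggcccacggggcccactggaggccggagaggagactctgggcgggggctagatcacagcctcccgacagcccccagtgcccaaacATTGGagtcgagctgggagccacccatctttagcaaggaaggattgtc

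These windows are chr6:52213018-52213317 on the minus strand for Hoxa3, chr6:52204538-52204837 on the minus strand for Hoxa5, chr11:96318017-96318316 on the plus strand for Hoxb4 and chr15:103034145-103034444 on the plus strand for Hoxc4. The promoters of Hoxa5 and Hoxc4 share the 12 bases TTGCCATAATGG on the strand of the gene, which were found, searched on both strands, in 2 of 27025 promoters of the reference, namely these. A run of the same length, CCCCTCCCCATC, is shared by the Hoxb4 and Hoxc4 promoters, was found in 24 of the 27025 and stands in lower case above. The letters CCAAT, read on both strands, were in the Hoxa5 and Hoxc4 windows and in neither of the others. They occurred in 8 of the 15 listed Hox genes with a promoter entry and in 37.9% of all promoters. The letters TATAAA were in 1 of the 15 and in 14.2% of all promoters, and TTTATG, the core bound by CDX factors, was in 4 of the 15 and in 12.1%. CG dinucleotides numbered 20 in the Hoxa3, 29 in the Hoxa5, 14 in the Hoxb4 and 9 in the Hoxc4 window, against a median of 7 over all promoters. Such matches describe letters and not sites in use.

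Hox transcripts were scarce in both populations. The mean over the 6 libraries ranged from 1.61 to 38.4 for the 27 genes, whereas the median of all tested genes was 65.7. A level of 3 reads, at or under which a value was treated as not measurable, corresponded to a normalized value of 1.39 to 5.36 depending on the library. Above it in all 6 libraries lay 9 Hox genes, and no Hox gene lay at or under it in all 6. A test was run for genes with a mean of at least 10, which 12 Hox genes passed: Hoxa2, Hoxa3, Hoxa5, Hoxa7, Hoxb3, Hoxb4, Hoxb5, Hoxb6, Hoxc4, Hoxc6, Hoxc8 and Hoxc9. The 15 others did not reach this mean, among them Hoxa9, Hoxa11, Hoxb8, Hoxc5, Hoxc12 and all listed genes of the D cluster. Thus 4 genes each of the A, B and C clusters were tested and none of the D cluster.

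One difference was called among the tested Hox genes, that of Hoxa3, where a call is a log2 fold change of at least 1 in either direction with an adjusted p of at most 0.05. This 1 of 12 stands beside 12.2% of all 17812 tested genes that were called higher in CX3CR1- cells. No Hox gene was called lower, against 8.15% of all tested genes, and 4 of the 12 reached 0.05 before adjustment, beside 6304 of all 17812. The log2 fold changes were above 0 for 11 of the 12 genes, with a median of 0.95, against 8872 of 17812 and a median of -0.0035 over all tested genes. This count and this median are descriptions and support no direction, since 5 of the 12 (Hoxa2, Hoxa3, Hoxa5, Hoxb6 and Hoxc9) had a mean under 10 in CX3CR1+ cells and passed the filter through their CX3CR1- values, whereas 0 passed the other way round. Every CX3CR1- library lay above every CX3CR1+ library for 3 of the 12 (Hoxa2, Hoxa3 and Hoxc8), beside 20.3% of all tested genes, and the reverse held for 0 of the 12, beside 19.8%.

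**Figure D1:**
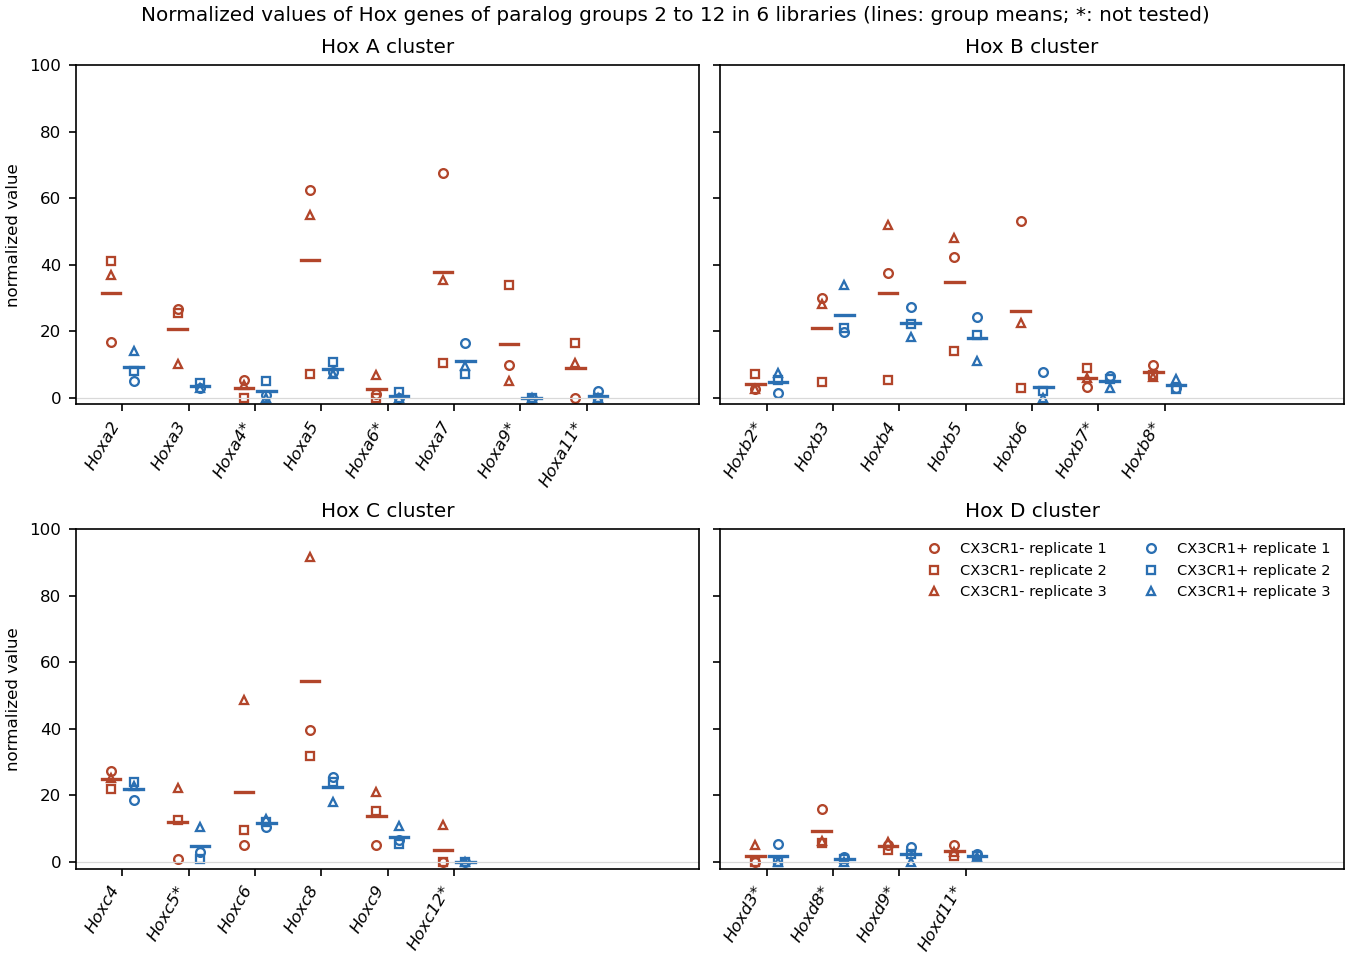
Normalized values (linear axis) of the listed Hox genes of paralog groups 2 to 12, one panel per cluster in paralog order, with CX3CR1- libraries in red, CX3CR1+ libraries in blue, a symbol shape per replicate and a line at each group mean. An asterisk marks genes that were not tested, and CX3CR1- replicate 2 (red squares) sits far below the other red symbols for Hoxa5, Hoxa7, Hoxb3, Hoxb4, Hoxb5 and Hoxb6.

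The A cluster (chr6:52155590-52260880) had the largest ratio between the populations of the 4 clusters when all 6 libraries were used. Summed over its 9 listed genes, the normalized values were 194, 136 and 168 in CX3CR1- and 37.3, 40.1 and 35.2 in CX3CR1+ replicates 1, 2 and 3. The CX3CR1- libraries all lay above the CX3CR1+ libraries, with a ratio of the means of 4.42 and of 4.82 without CX3CR1- replicate 2. Divided by transcript length in kilobases, the ratio was 4.49 and the groups did not overlap either. Without CX3CR1+ replicate 1, however, the log2 ratio of the D cluster, 2.56, was above that of the A cluster, 2.14. Sums over a cluster were not tested, since its genes are not replicates.

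Among its anterior genes, Hoxa3 (chr6:52169062-52213336, minus strand), needed for thymus and parathyroid formation, was at 26.7, 25.4 and 10.3 in CX3CR1- and at 3.09, 4.32 and 3.06 in CX3CR1+ replicates. The groups did not overlap, and the third CX3CR1- library was the lowest of its group. The fitted log2 difference, CX3CR1- minus CX3CR1+, was 2.18 ± 0.66 (SE, limma, Benjamini-Hochberg adjusted p = 0.0349), and the exact permutation test over the libraries gave p = 0.1, the smallest that 3 against 3 allow. These values rest on about 10.3 to 25.6 reads per CX3CR1- and 2.16 to 6.69 reads per CX3CR1+ library. The call did not pass in 7 of 15 alternative fits, among them each fit without one CX3CR1+ library and those without CX3CR1- replicate 1 (adjusted p = 0.0763) or 2 (adjusted p = 0.0568). Of the 31-mers of Hoxa3, 26.0% occur in another gene, mostly overlapping antisense transcripts of which Hoxaas2 holds the largest part, and the library kit did not keep the strand.

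Hoxa2 (chr6:52162417-52164831, minus strand), which patterns the hindbrain and the pharyngeal arches, was at 16.7, 41.1 and 36.9 in CX3CR1- and at 5.09, 8.20 and 14.2 in CX3CR1+ replicates. All CX3CR1- values lay above all CX3CR1+ values, and the log2 difference of 1.69 ± 0.57 (SE) missed the threshold at an adjusted p of 0.0558. It passed without CX3CR1- replicate 1, with a log2 fold change of 2.08 and an adjusted p of 0.0316. It also passed when libraries were scaled to an equal total without mitochondrial genes, with a log2 fold change of 1.84 and an adjusted p of 0.0409. In 12 of 15 alternative fits it did not pass, with an adjusted p of up to 0.1785 without CX3CR1+ replicate 1. Of the 31-mers of Hoxa2, 13.7% occur in another gene, Gm28308, which overlaps its exons on the same strand.

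The central genes of the A cluster were split within the CX3CR1- group. Hoxa5 (chr6:52201754-52204587, minus strand), which shapes lung and gut development, was at 62.6, 7.15 and 54.8 in CX3CR1- and at 7.86, 10.7 and 7.08 in CX3CR1+ replicates. Replicates 1 and 3 of the CX3CR1- cells stood several times above every other library, whereas replicate 2 lay among the CX3CR1+ values. Its log2 difference was 1.71 ± 0.76 (SE, adjusted p = 0.138). Hoxa7 (chr6:52214491-52221854, minus strand), a gene of thoracic axial patterning, had the same split, with 67.7, 10.4 and 35.4 in CX3CR1- and 16.6, 7.08 and 9.51 in CX3CR1+ replicates. Its log2 difference was 1.42 ± 0.68 (SE, adjusted p = 0.165), and 20.5% of its 31-mers occur in another gene, mostly Hoxaas3. Per kilobase, Hoxa7 had the highest mean of all 27 genes.

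Posterior A genes were listed almost only in CX3CR1- cells. Hoxa9 (chr6:52223100-52231089, minus strand), a regulator of blood stem and progenitor cells, was at 9.85, 34.0 and 5.14 in CX3CR1- replicates and at 0 in all CX3CR1+ replicates. Against 3 reads per CX3CR1+ library its mean was at least 6.05-fold higher, and at least 2.78-fold without CX3CR1- replicate 2, which held most of the signal. Hoxa11 was at 0, 16.6 and 10.3 against 1.91, 0 and 0. In contrast to the central genes, both had their highest value in CX3CR1- replicate 2. Neither reached the mean needed for the test, and in the fit with no filter on low values Hoxa9 was called (adjusted p = 0.00902) and Hoxa11 was not (adjusted p = 0.253). That fit called 3 of the 27 Hox genes, Hoxa3, Hoxa9 and Hoxd8, beside 9.51% of all genes called higher in it. Hoxa4 and Hoxa6 stayed at or under 6.98 in every library.

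Antisense transcripts within the A cluster, were looked up after the values of their neighbours had been seen. Hotairm1, transcribed from the anterior end of the cluster and known from myeloid maturation, was at 30.0, 26.7 and 14.1 in CX3CR1- and at 7.42, 4.30 and 0.993 in CX3CR1+ replicates, and it was called higher (log2 difference 2.40 ± 0.72, SE, adjusted p = 0.035). Hoxaas3 was at 44.4, 48.9 and 4.80 against 4.45, 1.31 and 3.41, with a log2 difference of 2.63 ± 0.90 (SE, adjusted p = 0.0601). For Hotairm1 and Hoxaas3, every CX3CR1- library lay above every CX3CR1+ library, beside 20.3% of all tested genes. For Hoxaas3 the margin was narrow, with 4.80 in CX3CR1- replicate 3 against 4.45 in CX3CR1+ replicate 1. Of the 15 alternative fits, 10 called Hotairm1 and 3 called Hoxaas3. Both had a mean under 10 in CX3CR1+ cells, 4.24 for Hotairm1 and 3.06 for Hoxaas3. They passed the filter on low values through their CX3CR1- values, so these differences are descriptions and support no direction. Hotairm1 was at 0.70 reads in CX3CR1+ replicate 3. The other listed transcripts of the A cluster did not reach the mean needed for the test and overlapped between groups, Hoxaas2 with 11.1, 5.24 and 3.86 against 0, 0 and 4.15 and 5730596B20Rik with 28.2, 0 and 3.99 against 0, 0.82 and 0. So did Hoxb3os of the B cluster, with 4.2, 0 and 23.3 against 0.503, 2.41 and 0. Reads from a Hox gene and from an antisense partner over the same exons cannot be told apart without strand.

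The B cluster (chr11:96194316-96368256) did not separate the populations. Its 8 listed genes summed to 192, 51.8 and 169 in CX3CR1- and to 97.0, 86.8 and 93.5 in CX3CR1+ replicates. The CX3CR1+ libraries lay between CX3CR1- replicate 2 below and replicates 1 and 3 above. The ratio of the means was 1.49, and 1.95 without CX3CR1- replicate 2. No B gene was called, and 3 of the 4 tested had a log2 fold change above 0.

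Hoxb3 (chr11:96323326-96347930, plus strand), which acts with its paralog Hoxa3 in the hindbrain and pharyngeal region, was at 30.2, 4.83 and 28.2 in CX3CR1- and at 19.7, 20.9 and 34.0 in CX3CR1+ replicates. It was the only tested Hox gene with a log2 fold change under 0 (-0.53 ± 0.66, SE, adjusted p = 0.619), and without CX3CR1- replicate 2 the value was 0.26. Of its 31-mers, 52.7% occur in another gene, nearly all in the antisense Hoxb3os. Hoxb4 (chr11:96318267-96321638, plus strand), known for expanding blood stem cells, was at 37.6, 5.36 and 51.9 against 27.3, 22.1 and 18.4. Its groups overlapped, its log2 difference was 0.01 ± 0.72 (SE, adjusted p = 0.995), and the sign depended on the fit. In CX3CR1- replicate 2, Hoxb3 (2.70 reads) and Hoxb4 (3 reads) were at or under the level treated as not measurable.

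Hoxb5 (chr11:96303336-96306121, plus strand), which acts in the development of the enteric nervous system, was at 42.4, 14.1 and 48.1 in CX3CR1- and at 24.4, 18.8 and 11.1 in CX3CR1+ replicates. Here too replicates 1 and 3 of the CX3CR1- cells were the highest libraries, and the log2 difference was 0.80 ± 0.55 (SE, adjusted p = 0.342). Hoxb6 (chr11:96292476-96301569, plus strand), a gene of the lateral plate mesoderm, was at 53.3, 2.82 and 22.6 against 7.73, 1.96 and 0. Its log2 fold change of 2.52 was the highest of the tested Hox genes and also had the largest standard error, 1.14 (adjusted p = 0.145). Hoxb6 was under 3 reads in CX3CR1- replicate 2 (1.58) and in CX3CR1+ replicates 2 and 3 (2.39 and 0). Its log2 fold change was 1.21 with a pseudocount of 10 and 2.89 with one of 0.5. Hoxb1 and Hoxb2 were the other B genes with a lower mean in CX3CR1- than in CX3CR1+ cells, at 5.77 ± 5.88 against 10.04 ± 3.72 and at 4.15 ± 2.51 against 4.80 ± 3.00 (SD, n = 3). Hoxb7 was at 2.83 to 8.94 over the 6 libraries. The values of Hoxb8 were 9.80, 7.0 and 6.25 against 2.90, 2.79 and 5.55, without overlap.

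The C cluster (chr15:102921103-103036852) had its highest sum, by far, in one library. The 6 listed genes summed to 77.9, 91.2 and 219.6 in CX3CR1- and to 64.1, 66.4 and 74.7 in CX3CR1+ replicates. All CX3CR1- sums lay above the CX3CR1+ sums, but per kilobase they overlapped. The log2 ratio of the means was 0.92 and dropped to 0.31 without CX3CR1- replicate 3. No C gene was called.

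Hoxc8 (chr15:102990607-102994111, plus strand), which specifies thoracic skeleton and motor neurons, had the highest mean of all Hox genes before division by length. It was at 39.6, 31.8 and 91.7 in CX3CR1- and at 25.5, 24.0 and 17.9 in CX3CR1+ replicates, so that the groups did not overlap. The log2 difference was 1.1 ± 0.46 (SE, adjusted p = 0.112). Hoxc6 (chr15:102998257-103011881, plus strand), another gene of the thoracic level, was at 5.0, 9.53 and 48.6 against 10.4, 12.1 and 12.8, a log2 difference of 0.20 ± 0.76 (SE, adjusted p = 0.879). Here CX3CR1- replicate 3 stood above and replicates 1 and 2 below all CX3CR1+ libraries, and without replicate 3 the log2 fold change was -0.68.

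Hoxc4 (chr15:103018934-103036852, plus strand), which in B cells drives the enzyme of antibody diversification, was the steadiest Hox gene. Its values were 27.5, 21.9 and 25.2 in CX3CR1- and 18.7, 24.1 and 22.9 in CX3CR1+ replicates, a log2 difference of 0.18 ± 0.40 (SE, adjusted p = 0.79). All 6 libraries lay within a narrow band, and CX3CR1- replicate 2 was no exception. Hoxc9 (chr15:102976439-102985099, plus strand), a thoracic patterning gene and the only posterior gene tested, was at 4.94, 15.2 and 21 against 6.57, 5.43 and 10.7, a log2 difference of 0.63 ± 0.69 (SE, adjusted p = 0.564). Hoxc5 overlapped between groups as well, and Hoxc12 was listed above 0 in CX3CR1- replicate 3 alone, at 10.97.

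The D cluster (chr2:74668310-74765142) was close to the limit of measurement. Its 4 listed genes summed to 26.2, 11.1 and 20.4 in CX3CR1- and to 13.9, 5.09 and 1.42 in CX3CR1+ replicates, with overlap. Hoxd8 held much of the CX3CR1- part, with 15.8, 5.73 and 6.39 against 1.48, 0.991 and 0, and was called in the fit with no filter on low values, the only one that held it (adjusted p = 0.0465). Hoxd3, Hoxd9 and Hoxd11 were at most 5.98 in any library.

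The shares of the A and B clusters in the summed Hox signal did not overlap between the populations, and those of the C and D clusters did. The A cluster held 39.6, 47.0 and 29.1% in CX3CR1- and 17.6, 20.2 and 17.2% in CX3CR1+ replicates. The B cluster held 39.1, 17.8 and 29.3% against 45.7, 43.7 and 45.6%. Both were tighter among the CX3CR1+ libraries. The C cluster held 28.5 ± 11.4% against 33.4 ± 3.14% (SD, n = 3), and the D cluster 5.35, 3.82 and 3.53% against 6.56, 2.57 and 0.691%. A share is relative to the other clusters. That of the B cluster was lower in CX3CR1- cells, whereas its sum was not lower in the mean, at 137 ± 74.97 against 92.4 ± 5.21 (SD, n = 3). These shares use values that were not divided by length and were not tested.

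**Figure D2:**
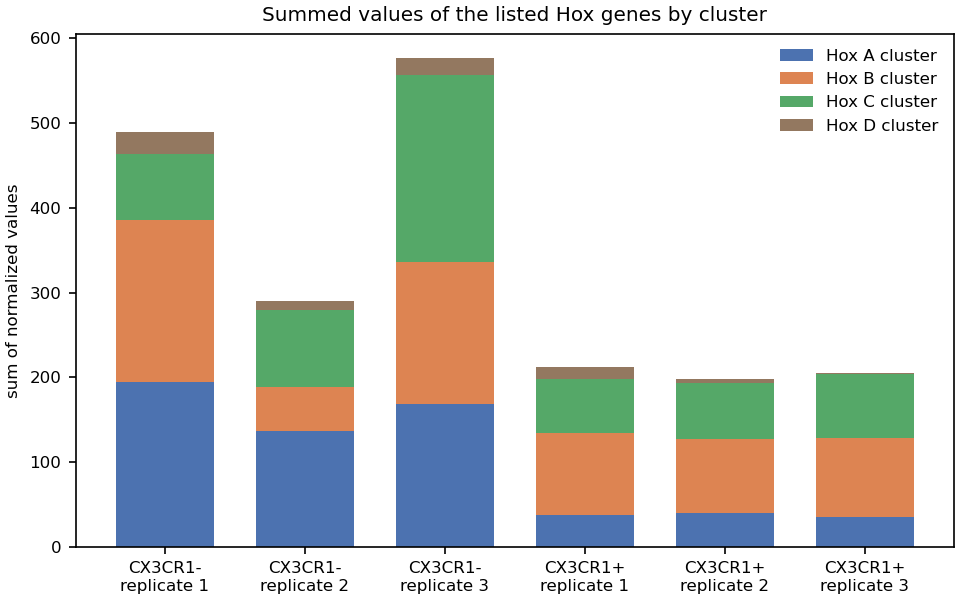
Stacked bars give the sum of normalized values of the listed Hox genes in each library, with one colour per cluster and the axis starting at 0. The 3 CX3CR1+ bars reach 198 to 212 with a thin A segment, and the CX3CR1- bars reach 290.5 to 577 with a thick one.

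All 27 listed genes together summed to 489.7, 290.5 and 577 in CX3CR1- and to 212, 198 and 205 in CX3CR1+ replicates. The groups did not overlap, the ratio of the means was 2.20, and the CX3CR1+ libraries lay within a far narrower range. As a percent of the total of the library, however, the groups overlapped, with 0.00393, 0.00249 and 0.0051% in CX3CR1- and 0.00261, 0.00241 and 0.00271% in CX3CR1+ replicates, and CX3CR1- replicate 2 lay below CX3CR1+ replicates 1 and 3. The totals include mitochondrial genes, whose larger share in CX3CR1- libraries is given above. About 145 to 459 reads per CX3CR1+ library and 162 to 578 reads per CX3CR1- library stood behind these sums. The 15 genes that were not tested summed to 75.6, 101 and 102 against 39.3, 38.6 and 43.2, again without overlap.

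By paralog group and per kilobase of transcript, the summed level in CX3CR1- cells was highest for group 7 (Hoxa7 and Hoxb7) with 54.1 ± 32.1 (SD, n = 3), and groups 5, 6 and 8 followed with 38.6 to 43.8. In CX3CR1+ cells the order was another one, with groups 3 at 22.2 ± 5.30 and 4 at 20.7 ± 2.57 first, group 7 at 19.8 ± 7.47 and groups 5, 6 and 8 at 14.7 to 15.7. Against these SDs, the order among groups 5 to 8 in CX3CR1- cells and among groups 3, 4 and 7 in CX3CR1+ cells could not be told apart. Before division by length, groups 8, 9 and 11 were those in which every CX3CR1- library lay above every CX3CR1+ library. This held for 20.3% of all tested single genes. Group 11 held no tested gene, and the sums of groups were not tested. No gene of groups 10 and 13 was listed.

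Grouped by class, the anterior genes (paralog groups 1 to 3) summed to 93.0, 82.0 and 90.1 in CX3CR1- and to 43.8, 51.2 and 74.2 in CX3CR1+ replicates. The central genes (groups 4 to 8) summed to 372, 137 and 430.1 against 153, 138 and 118, and the posterior genes (groups 9 to 13) to 25.2, 71.1 and 56.4 against 15.4, 9.53 and 12.1. Central genes thus made the bulk of the signal in every library but one, in which they held 47.3%. CX3CR1- replicate 2 was the exception, low in the central and high in the posterior class. The anterior sums overlapped once divided by length, and the posterior sums did not.

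CX3CR1- replicate 2 was the lowest library of its group for 8 of the 12 tested Hox genes, against 35.0% of all tested genes. It was also the shallowest of the CX3CR1- libraries, with about 6517535 reads. Without it, Hoxa5 (log2 fold change 2.66, adjusted p = 0.00372), Hoxa7 (2.13, adjusted p = 0.0219) and Hoxb6 (3.60, adjusted p = 0.0263) were called and Hoxa3 (1.99, adjusted p = 0.0568) was not. These 3 of 12 stand beside 12.9% of all tested genes called higher in that fit. With 2 CX3CR1- libraries left, these fits assume that the pair varies like the rest. The fold change of Hoxb6 was taken against CX3CR1+ replicates 2 and 3 at under 3 reads.

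**Figure D3:**
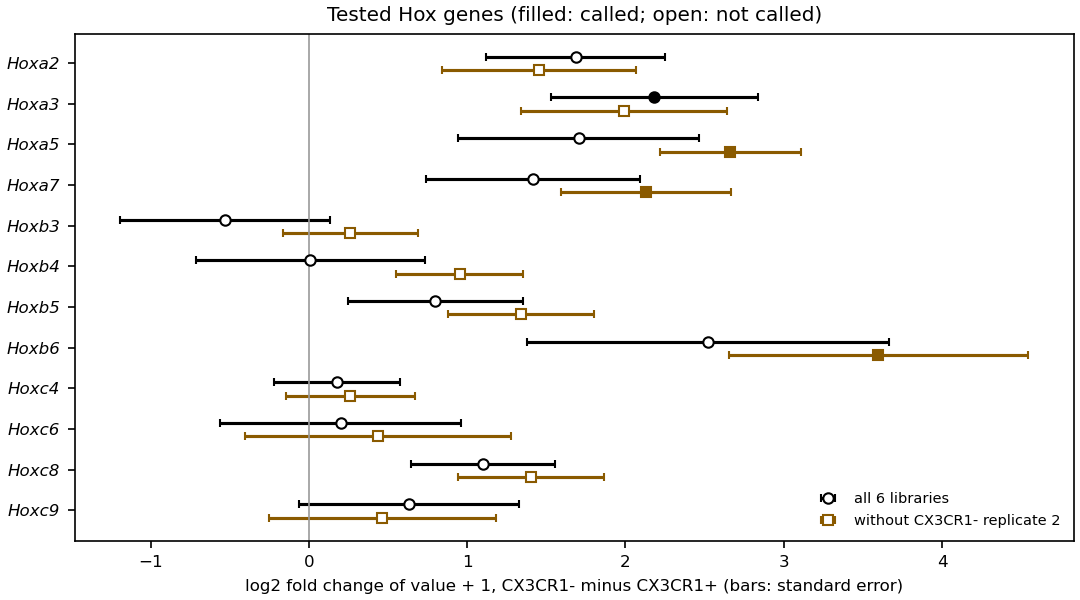
Log2 fold changes of value + 1 (CX3CR1- minus CX3CR1+) of the 12 tested Hox genes with standard errors as bars, from all 6 libraries (circles) and without CX3CR1- replicate 2 (squares), where filled symbols are called. Hoxa3 is filled in the first fit only, and Hoxa5, Hoxa7 and Hoxb6 in the second only.

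Marker genes of some other cells of the ME showed a drop in the same library. The 8 smooth muscle markers (led by Myh11, Acta2 and Actg2) summed to 3164, 1083 and 3103 in CX3CR1- and to 2218, 2995 and 2618 in CX3CR1+ replicates. The 5 listed enteric glia markers summed to 378, 119 and 318 against 54.2, 68.3 and 57.9, and the 10 enteric neuron markers to 615, 149 and 494 against 194, 254 and 183. CX3CR1- replicate 2 held 0.346 of the mean of the other CX3CR1- libraries for smooth muscle, 0.342 for glia and 0.269 for neuron markers, beside 0.288 for the Hox B cluster and 0.754 for the A cluster. Fibroblast markers (led by Dcn, Pdgfra and Dpt) summed to 9455, 5372 and 16147 against 371, 311 and 214, highest in replicate 3, in which Hoxc6 and Hoxc8 were highest too. Enterocyte markers (12 genes) summed to 32984, 28180.3 and 17841 in CX3CR1- and to at most 69.0 in CX3CR1+ libraries. Some lists did not drop in CX3CR1- replicate 2. B and plasma cell markers held 2.12, monocyte markers 1.65 and enterocyte markers 1.11 of the mean of the other CX3CR1- libraries. No marker of the smooth muscle, glia, neuron, fibroblast and enterocyte lists was at 0 in all CX3CR1- libraries. Of these, 1 (the enterocyte gene Alpi) was at 0 in all CX3CR1+ libraries. The part of these cells in the Hox values was not tested.

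**Figure D4:**
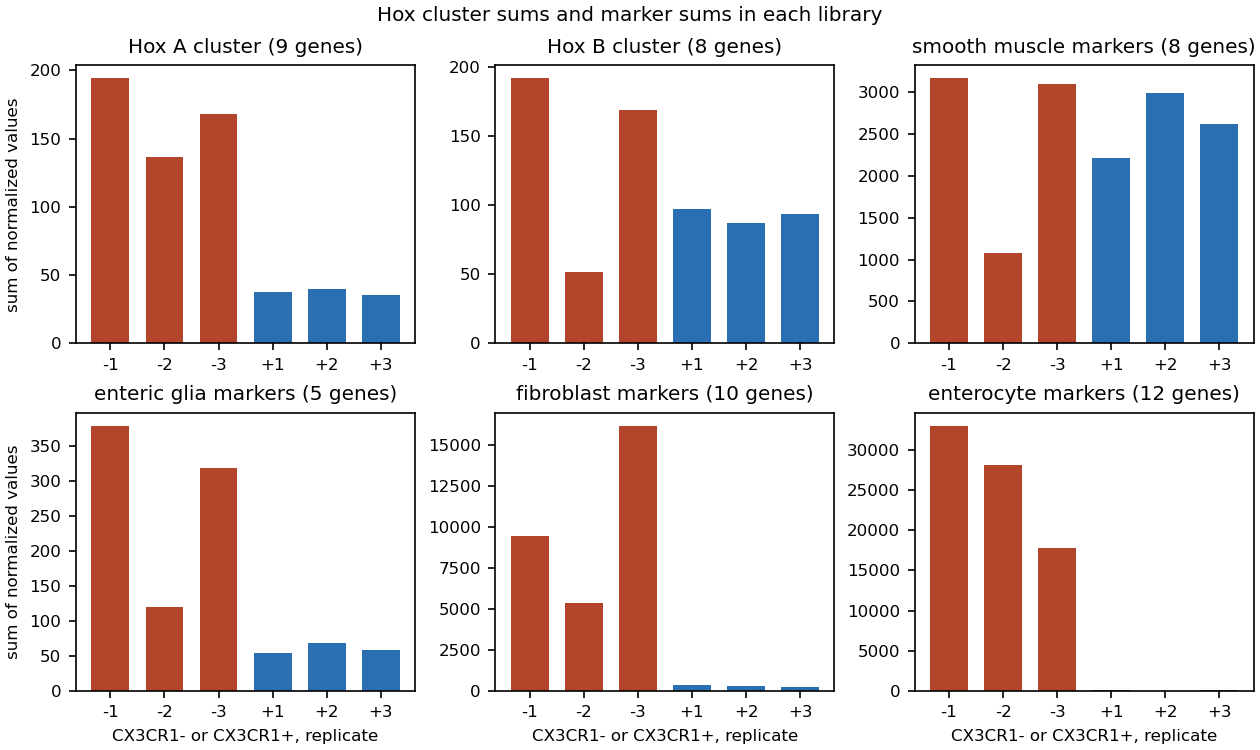
Bars give, for each library, the sum of normalized values of the Hox A cluster, the Hox B cluster and 4 lists of marker genes, each on its own linear axis from 0, with CX3CR1- libraries in red and CX3CR1+ libraries in blue. The second red bar is the lowest bar of the Hox B cluster and of the smooth muscle markers, whereas in the Hox A cluster all red bars stand above the blue ones.

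Hox proteins bind DNA together with TALE homeodomain cofactors, of which 8 of 9 were tested. Meis2 was higher in CX3CR1- cells, with 423, 176 and 584 against 77.8, 66.9 and 83.0 (log2 difference 2.20 ± 0.39, SE, adjusted p = 0.00244). Its groups did not overlap, and replicate 2 was again the lowest CX3CR1- library. Pknox1, which encodes the PBX partner PREP1, was lower, with 189.6, 124 and 129.6 against 309.6, 319.6 and 276 (log2 difference -1.05 ± 0.24, SE, adjusted p = 0.00922). Meis2 was called in all of its 16 alternative fits and Pknox1 in 13 of 16. The other 6 were not called. The 1 higher and 1 lower of 8 stand beside 12.2% and 8.15% of all tested genes.

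Of 18 regulators of Hox transcription, 14 were tested, 2 were called higher and 0 lower. Over all tested genes, 12.2% were called higher and 8.15% lower. Cdx2, an activator of Hox genes and of intestinal epithelial identity, was at 111, 12.5 and 22.9 in CX3CR1- replicates and at or under 3 reads in every CX3CR1+ library, at least 18.04-fold higher by the means (adjusted p = 0.00472). Without CX3CR1- replicate 1 this bound was 6.57-fold, and Cdx2 was called in all 15 alternative fits. It passed the filter on low values through its CX3CR1- values. Gdf11, a secreted factor of axial patterning, was at 33.4, 60.8 and 36.9 against 14.8, 22.1 and 14.2 (log2 difference 1.29 ± 0.42, SE, adjusted p = 0.0493). It was called in 3 of 15 alternative fits, with an adjusted p of 0.0641 with no filter on low values and of up to 0.16 in the others. The Polycomb and Trithorax genes on the list (Ezh2, Eed, Suz12, Bmi1, Cbx7, Jarid2, Kmt2a and Men1) had no call. Of the genes that flank the clusters, 0 of 8 tested were called, beside the same shares of all tested genes. Their median log2 fold change was -0.11.

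Transcription factors of gut patterning outside the Hox clusters had larger median log2 fold changes. Of 10 tested factors of gut mesenchyme, 7 were higher and 0 lower in CX3CR1- cells, with a median log2 fold change of 2.13. Over all tested genes, 12.2% were higher and 8.15% lower. Those with the smallest adjusted p were Tbx3 (3.82, adjusted p = 8.82e-05), Tcf21 (3.64, adjusted p = 0.00319), Prrx1 (3.11, adjusted p = 0.00767) and Gli2 (3.15, adjusted p = 0.0162). Of 10 tested factors of gut epithelium, 7 were higher and 0 lower, among them Klf5 (log2 fold change 5.76, adjusted p = 7.09e-06), Hnf4a (7.73, adjusted p = 3.89e-05) and, both at or under 3 reads in every CX3CR1+ library, Hnf4g (at least 90.2-fold higher) and Gata6 (at least 20.55-fold higher). Each of the 8 genes named here was called in every alternative fit that held it, except for Gli2 without CX3CR1+ replicate 3 (adjusted p = 0.0583). The 7 called factors of gut epithelium, and Prrx1 and Gli2, had a mean under 10 in CX3CR1+ cells. They passed the filter through their CX3CR1- values, so these counts and medians are descriptions and support no direction. The difference between these lists and the Hox genes was not tested.

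**Figure D5:**
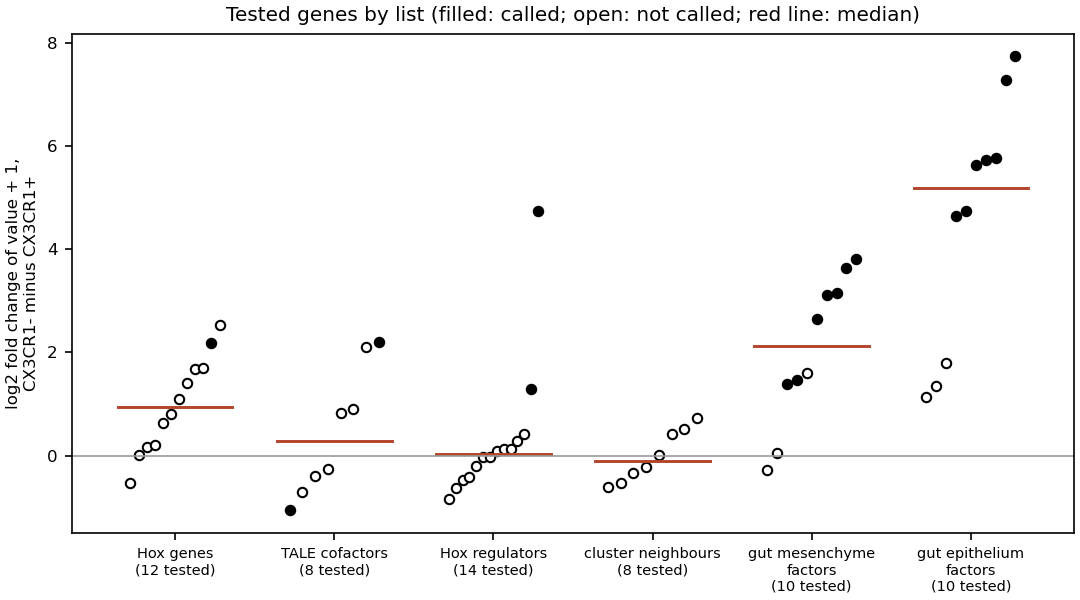
Each point is the log2 fold change of value + 1 (CX3CR1- minus CX3CR1+) of a tested gene, sorted within its list, filled where called, with a red line at the median of the list. The Hox genes have a median of 0.95 with 1 filled point, and the factors of gut epithelium one of 5.18 with 7 filled points. Those 7 passed the filter on low values through their CX3CR1- values.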

How the data were processed

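Bulk RNA-seq libraries of 3 CX3CR1- and 3 CX3CR1+ sorts were grouped by the sample labels, and replicates 1 to 3 follow the order of the library numbers in them, which give no batch. The authors pseudoaligned the reads with kallisto to the mouse transcriptome (mm10), summed the estimates per gene and deposited signal values normalized between libraries with DESeq2. The submitters' processing notes name the same tools. The deposited values are not counts: 42.5 to 44.6% of the values above 0 were whole multiples of the smallest step of the library, within 0.01. No count test was therefore run.

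The 17812 of 26110 rows (23 symbols occur more than once) whose mean over all libraries reached 10 were tested on log2(value + 1) with limma 3.58.1 in R 4.3.3, with an intensity trend, as a two-sided test, and p-values were adjusted by Benjamini and Hochberg's method over all of them. Fold changes on this scale understate those of low genes. A call needed a log2 fold change of 1 or more in either direction and an adjusted p not above 0.05. The fit was tested on simulated data. An exact two-sided permutation test served for single values. The SD over 3 libraries gives the spread between libraries and not the precision of a mean.

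Positions, median transcript lengths and shared 31-mers came from GENCODE M21 on GRCm38, and promoters from RefSeq. Named were all Hox genes, and from each context list the called genes with the smallest adjusted p, at most 4 in a direction, and from marker lists the 3 with the highest mean. The Hox genes and all lists were chosen with earlier results of these data known. Alternatives were pseudocounts of 0.5 and 10, no filter, a mean of at least 50, 3 other scalings, no trend, library weights, leaving out each library and, added after seeing the data, a block of adjacent library numbers. No protein sequences were used here, and values of some members are not reported here. Plots were drawn with matplotlib 3.10.9.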

Additional observations from a re-analysis of the deposited data

How the results depend on the processing

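The labels give no pairing. With adjacent library numbers as a block, an alternative chosen after seeing the data, 3610 of all genes and 1 Hox gene were called, Hoxa2 (adjusted p = 0.0499) in place of Hoxa3 (adjusted p = 0.0568). Deviations from the group means correlated by 0.104, 0.038 and 0.0142 within these pairs, and CX3CR1- replicate 3 correlated more with another library (0.0404). The number of Hox genes called was 1 and was 3 with no filter on low values, 0 with a mean of at least 50 (where 0 of the 12 were tested), 0 after quantile normalization and 2 when libraries were scaled to an equal total without mitochondrial genes. Leaving out one library gave 0 to 3 Hox genes. It was 3 without CX3CR1- replicate 2, 1 without CX3CR1- replicate 1 (Hoxa2 in place of Hoxa3) or 3 (Hoxa3), and 0 without any one of the CX3CR1+ replicates. Over all genes, 3628 were called, 2413 with a mean of at least 50, and 2742 to 3862 when one library was left out. Scaling to an equal total shifted the log2 fold changes of all tested genes by 0.17 in the median, and quantile normalization by -0.16. Relative to the median of all genes, the median of the tested Hox genes was 0.95 as deposited, 0.94 with the equal total and 0.75 after quantile normalization. Quantile normalization lowered the log2 ratio of the summed Hox values from 1.14 to 0.69 (0.93 to 1.38 when one library was left out) and that of the A cluster from 2.14 to 1.65 (2.02 to 2.27). When one library was left out, that of the C cluster was 0.31 to 1.18 and that of the D cluster 1.01 to 2.56. The sign turned for uncalled genes only. Hoxb4, at 0.01, came to -0.0087 with a pseudocount of 0.5 and to -0.33 after quantile normalization, which also gave -0.23 for Hoxc4 and -0.24 for Hoxc6. When one library was left out, Hoxb3 ranged from -0.95 to 0.26, Hoxc6 from -0.68 to 0.84 and Hoxb4 from -0.57 to 0.95. Of 180 values of single Hox genes under the alternatives, 158 kept direction and side of the threshold. Median-of-ratios rescaling, one of the 3 other scalings, returned the values of the deposited scaling, so its part of the 158 is no check. The fits with no filter, with no trend and with the block left the log2 fold changes as they were. In them the call could move and the direction could not. The cause of these moves was not tested. No Hox gene had more than about 92 reads in a library.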
